A study of Mus musculus with 4 samples.

Results

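The 10 genes described here are YAP and TAZ, the TEAD transcription factors they bind, and 4 of their best known target genes, among 24346 gene symbols measured. They were chosen by name, with earlier results of these data known, and all 10 were found in the tables: Yap1, Wwtr1 (which encodes TAZ), Tead1, Tead2, Tead3, Tead4, Cyr61, Ctgf, Ankrd1 and Amotl2. RNA sequencing had been done on MC38, a mouse colon carcinoma cell line, in 4 libraries. Titles assign 2 of them to wild type cells (WT) and 2 to knockout cells (KO), numbered 1 and 2 within each genotype. The titles do not name the gene knocked out, taken here to be Arid5a. No treatment, time point, clone or deleted exon is given in the labels. KPC cells, also named in the series design, were not analysed here. Nothing says that the 2 libraries of a group came from separate cultures, so p-values measure only the spread between libraries.

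YAP and TAZ are coactivators without a DNA-binding domain. When the Hippo kinases MST and LATS are active, YAP and TAZ are phosphorylated, kept in the cytoplasm and degraded. When cells spread, pull on a stiff matrix or lose contact with neighbours, YAP and TAZ enter the nucleus and bind TEAD proteins. They do so at the M-CAT element, which has the core GGAATG or its reverse complement CATTCC. In colon tissue the pathway is known for driving regeneration after injury and for its activity in tumours. Messenger RNA levels do not show where the YAP and TAZ proteins are in the cell.

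Levels are given in FPKM, which scale fragments by transcript length and by sequencing depth, so that levels of different genes can be set side by side. Changes are given as log2(FPKM + 1) in the KO-labelled libraries minus the WT-labelled ones, with the standard error (SE) from limma, a linear model fitted over all genes. Genes with an adjusted p (Benjamini-Hochberg) below 0.05 are referred to as called. The targeted gene, Arid5a, was higher in the KO-labelled libraries. It was 0.225 and 0.124 FPKM in the WT-labelled libraries and 2.16 and 1.77 FPKM in the KO-labelled ones. These values rest on an estimated 3 to 17 fragments per WT library and 42 to 112 per KO library, depending on the transcript. Every direction below therefore refers to the labels as deposited and not to a loss of Arid5a. Estimated depth was 9370000 to 14000000 fragments per library. Across genes, log2 levels correlated at 0.978 and 0.982 (Pearson) between replicates and at 0.954 to 0.960 between groups, and genes are not independent replicates.

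Of the 10 genes, 9 passed the filter of a mean of 1 FPKM, each with more than 1 FPKM in every library, and Ctgf did not. The targets Cyr61 and Ankrd1 showed the largest changes, both higher in the KO-labelled libraries. Tead3, Tead1, Amotl2 and Tead2 were higher by smaller amounts and Wwtr1 was lower, while Yap1 and Tead4 were not called. Of all 10827 genes tested, 47.6% were called. Here 6 of 9 were called higher, where 24.4% of all genes were, and 1 of 9 called lower, where 23.3% were. Because of how the genes were chosen, these counts are a description of them. The median log2 change was 0.28 over the 9 genes and 0.006 over all genes tested. The groups did not overlap for any of the 9 genes, 7 of them higher and 2 lower in KO. This was also so for 77.5% of all genes tested, 39.4% higher and 38.2% lower. With each library scaled to the same FPKM sum, 4 of the 9 were called higher and 1 lower. The split over all genes then went from 2641 higher and 2518 lower to 1984 higher and 3315 lower. That scaling also raised the values of every library, so the +1 weighed less and 11286 genes passed the filter, against 10827.

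**Figure D1:**
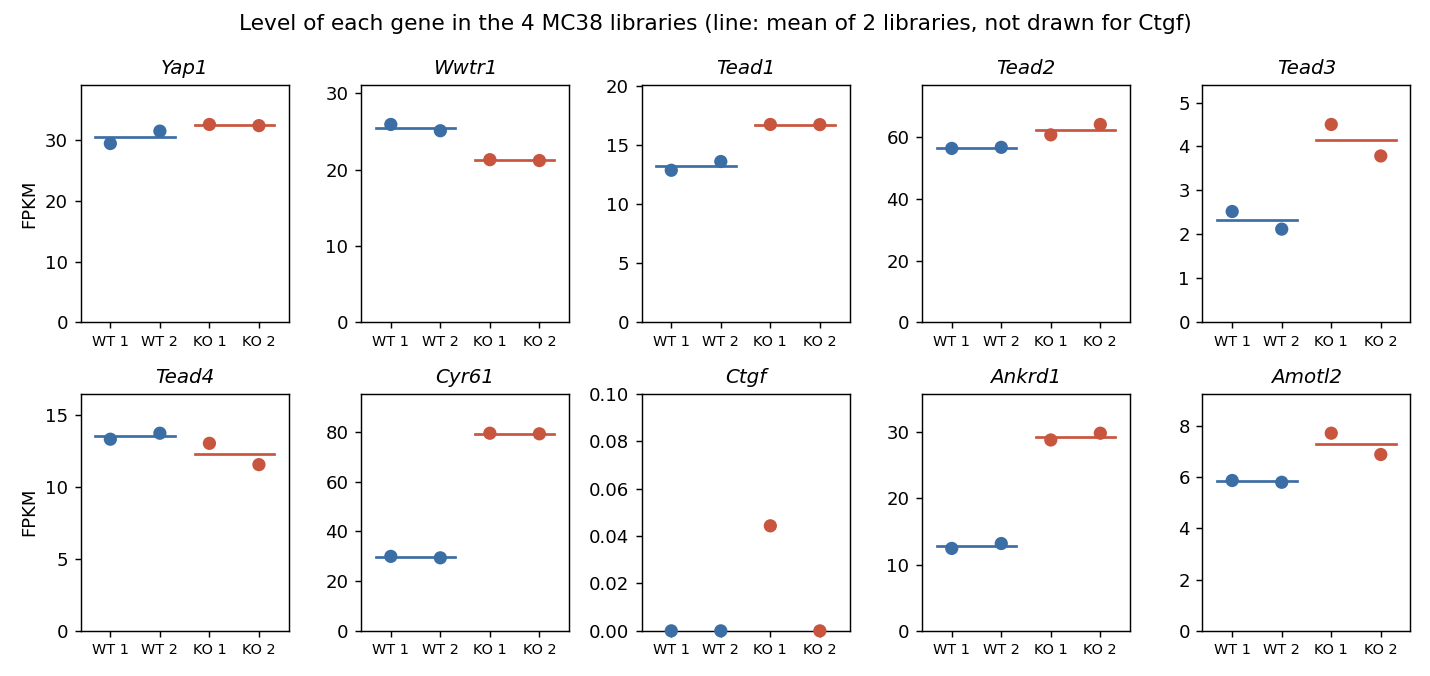
FPKM (vertical axes, linear and starting at 0, each with its own range) of the 10 genes in the 4 libraries, with WT in blue and KO in red; points are libraries and lines are means of 2. Cyr61 and Ankrd1 show the widest gaps between the groups, and Ctgf is at 0 in 3 of 4 libraries.

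**Figure D2:**
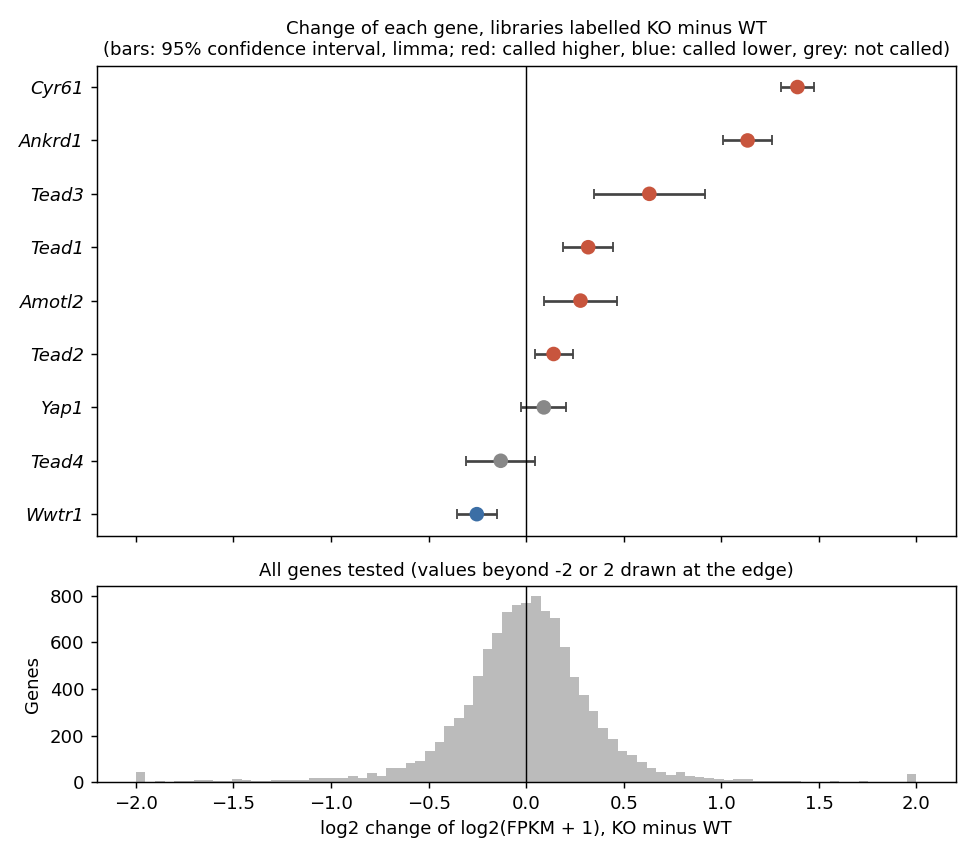
Log2 change, KO minus WT, with 95% confidence intervals from limma for the 9 genes tested (top), above the distribution of the change over all 10827 genes tested (bottom, number of genes). Cyr61 at 1.39 and Ankrd1 at 1.13 lie in the right tail, and the other 7 genes lie between -0.25 and 0.63.

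The coactivators parted slightly. Yap1 (chromosome 9, 7931999 to 8004596, minus strand, GRCm38) was 29.5 and 31.5 FPKM in the WT-labelled libraries and 32.6 and 32.5 FPKM in the KO-labelled ones. Wwtr1 (chromosome 3, 57455649 to 57575910, minus strand) was 25.9 and 25.1 FPKM against 21.3 and 21.2 FPKM. Neither gene's groups overlapped, but the gap for Yap1 was smaller than the difference between its own WT libraries. Wwtr1 fell by 0.25 ± 0.041 (SE; adjusted p = 0.00622), to 0.833 of its WT level. Yap1 was not called, with a change of 0.091 ± 0.046 and an adjusted p of 0.156. Its 95% confidence interval ran from -0.025 to 0.21. The summed level of both genes was 55.4 and 56.7 FPKM in the WT-labelled libraries and 54.0 and 53.6 FPKM in the KO-labelled ones. Yap1 held 53.2% and 55.7% of that sum in the WT libraries and 60.5% and 60.5% in the KO libraries. An annotated antisense transcript, Gm20416, lies on an exon of Yap1, and it is not known whether counting used the strand.

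All 4 TEAD genes were expressed, at very different levels. These proteins carry the DNA-binding TEA domain and need a coactivator to raise transcription. Tead2 (chromosome 7, 45215753 to 45233644, plus strand) was the highest, at 56.4 and 56.8 FPKM in the WT-labelled libraries and 60.8 and 64.2 FPKM in the KO-labelled ones. It held 64.0% to 66.7% of the summed TEAD level in each library. Its change was 0.14 ± 0.038 (adjusted p = 0.0317), and the gap between the groups was only slightly wider than the spread of the KO libraries. The call of Tead2 was lost when either WT library was omitted (adjusted p of 0.117 without replicate 1 and 0.108 without replicate 2), without KO replicate 2 (0.114), and with libraries scaled to the same FPKM sum, where the change was 0.075. An exon of Cd37, a leukocyte gene on the other strand, lies on Tead2, and Cd37 itself was at 0 to 0.286 FPKM.

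Tead1 (chromosome 7, 112679318 to 112906807, plus strand) was 12.8 and 13.6 FPKM in the WT-labelled libraries and 16.7 and 16.7 FPKM in the KO-labelled ones. The KO libraries agreed closely and both lay above the WT libraries, a rise of 0.32 ± 0.050 (adjusted p = 0.00575). Tead3 (chromosome 17, 28331671 to 28350817, minus strand) was the lowest of the 4. It was 2.52 and 2.12 FPKM in the WT-labelled libraries against 4.50 and 3.78 FPKM in the KO-labelled ones. Its rise of 0.63 ± 0.11 (adjusted p = 0.00839), or 1.79-fold in mean FPKM, was the largest among the TEAD genes. It rests on few fragments, an estimated 36 to 117 per library depending on the library and transcript. Tead4 (chromosome 6, 128224288 to 128300823, minus strand) was 13.3 and 13.7 FPKM against 13.03 and 11.5 FPKM. The KO libraries lay lower but spread more widely than the WT libraries, and Tead4 was not called at -0.13 ± 0.069 (adjusted p = 0.175, 95% confidence interval -0.31 to 0.045).

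Summed over the 4 genes, the TEAD level was 85.1 and 86.2 FPKM in the WT-labelled libraries and 95.1 and 96.2 FPKM in the KO-labelled ones. Tead1 and Tead4 held similar shares in the WT libraries, 15.1% and 15.8% for Tead1 and 15.6% and 15.9% for Tead4. In the KO libraries Tead1 held 17.6% and 17.4% and Tead4 13.7% and 12%. Tead3 went from 2.96% and 2.46% to 4.73% and 3.93%. These shares are descriptions and were not tested.

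**Figure D3:**
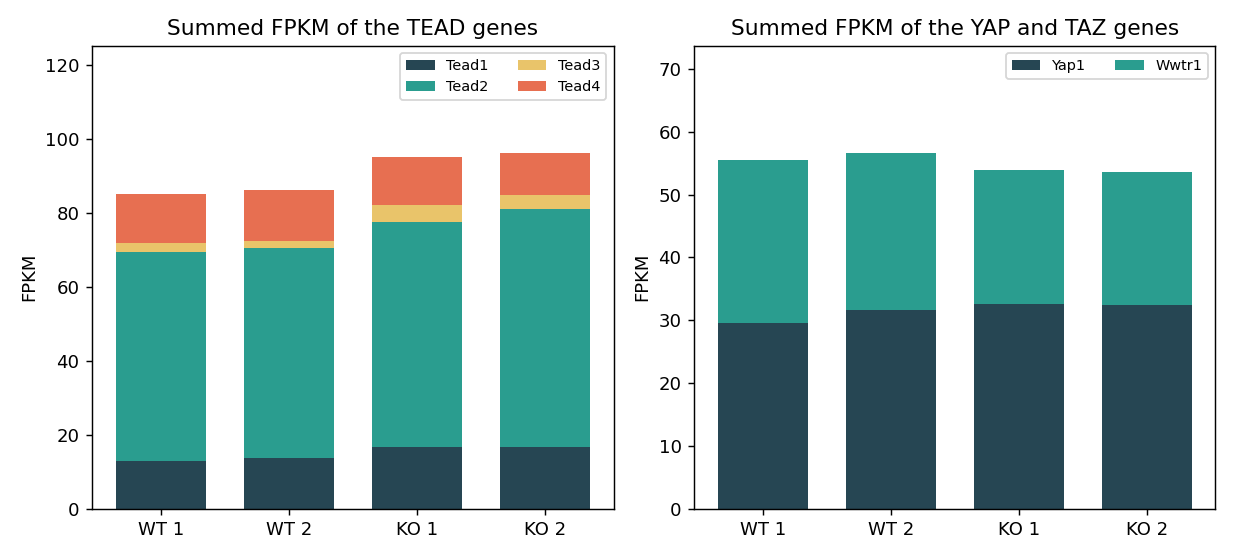
Stacked FPKM per library of the 4 TEAD genes (left) and of Yap1 and Wwtr1 (right), both axes starting at 0. Tead2 makes up most of the TEAD sum in all 4 libraries, and the Yap1 part of the right-hand bars is larger in KO (60.5%) than in WT (53.2% and 55.7%).

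Cyr61, also named Ccn1, encodes a secreted matricellular protein that binds integrins and is induced soon after YAP or TAZ enters the nucleus. It lies on chromosome 3 from 145646976 to 145649981 on the minus strand. Its level was 29.96 and 29.4 FPKM in the WT-labelled libraries and 79.5 and 79.3 FPKM in the KO-labelled ones. Replicates differed by less than 1 FPKM, and the mean was 2.68-fold higher in the KO libraries. The rise of 1.39 ± 0.032 (adjusted p = 3.78e-05) ranked 66 among the rises of all genes tested.

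Ankrd1 encodes a nuclear ankyrin repeat protein that is best known from stressed heart and skeletal muscle. It lies on chromosome 19 from 36111961 to 36120099 on the minus strand. Its level was 12.5 and 13.2 FPKM in the WT-labelled libraries and 28.8 and 29.8 FPKM in the KO-labelled ones. The mean was 2.29-fold higher in the KO libraries, a rise of 1.13 ± 0.049 (adjusted p = 0.000173) that ranked 101 among all rises. Among 5 muscle markers only Tnnt2, a troponin subunit, passed the filter, at 4.98 and 5.37 FPKM in WT and 5.84 and 5.44 FPKM in KO. It was not called (adjusted p = 0.289), and Actc1 and Myog were listed at 0 in all 4 libraries. Cyr61 and Ankrd1 kept their direction and call under all 14 alternative settings, with changes of 1.34 to 1.42 for Cyr61 and 1.09 to 1.19 for Ankrd1.

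Amotl2 encodes an angiomotin-like scaffold that holds YAP at cell junctions and is itself a YAP target, so that it acts in negative feedback. The gene spans 102716672 to 102733418 of chromosome 9 (plus strand). Its level was 5.86 and 5.79 FPKM in the WT-labelled libraries and 7.71 and 6.88 FPKM in the KO-labelled ones. The KO libraries lay above both WT libraries but spread more than they did, and the rise was 0.28 ± 0.074 (adjusted p = 0.0298). The call was lost when either WT library was omitted (adjusted p of 0.0982 without replicate 1 and 0.114 without replicate 2), without KO replicate 1 (0.105), with no filter (0.0614) and with libraries scaled to the same FPKM sum (0.054).

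Ctgf, also named Ccn2, the CCN family member most often used as a readout of YAP and TAZ, was not detectable at this depth. Its gene (chromosome 10, 24595442 to 24598683, plus strand) shares an exon with the annotated antisense transcript Gm15270. Ctgf was listed at 0 in WT replicate 1, WT replicate 2 and KO replicate 2 and at 0.0443 FPKM in KO replicate 1, which corresponds to about 1 fragment. A level of 3 fragments, the limit that a count of 0 allows, would be 0.0893 to 0.12 FPKM in the libraries listed at 0, for counting error only. A 0 in these tables can also be a failed estimate, since the ribosomal protein gene Rpl26 was listed at 0 in KO replicate 1 and at 9.46 to 15.9 FPKM in the other libraries. Ctgf was below the filter, and no fold was computed. Cyr61, from the same family, was thus among the more abundant of the 10 genes in the same libraries, and Ctgf was at or near 0.

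The order of levels differed between the groups. In the libraries labelled WT the order by mean was Tead2, Yap1, Cyr61, Wwtr1, Tead4, Tead1, Ankrd1, Amotl2, Tead3 and Ctgf. Yap1 and Cyr61 overlapped there, as did Tead4 with Tead1 and Tead1 with Ankrd1, and the other neighbours did not. In the libraries labelled KO, Cyr61 came first, before Tead2, Yap1, Ankrd1, Wwtr1, Tead1, Tead4, Amotl2, Tead3 and Ctgf, and no neighbours overlapped.

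The core of the M-CAT element, called the element below, was looked for in the 250 bases before the annotated start sites, on both strands. Sequences came from RefSeq (GRCm38.p6). Windows were found for 7 of the 10 genes, all except Tead1, Tead4 and Ctgf. Of these 7 genes, 6 held GGAATG or CATTCC in at least 1 window, all but Tead2, where 14.4% of all 27025 genes with a window did. Counted by window it was 8 of 10, against 12.6% of all windows. The 2 windows of Wwtr1 overlap and share 1 site, and Tead3 has several windows. Because the genes were chosen by name, these counts are descriptions. The window of Cyr61, the gene with the largest change, is shown whole and ends 1 base before the start site, with the motif in capitals (chr3:145649986-145650235, minus strand). It begins 103 bases before the start:
Cyr61: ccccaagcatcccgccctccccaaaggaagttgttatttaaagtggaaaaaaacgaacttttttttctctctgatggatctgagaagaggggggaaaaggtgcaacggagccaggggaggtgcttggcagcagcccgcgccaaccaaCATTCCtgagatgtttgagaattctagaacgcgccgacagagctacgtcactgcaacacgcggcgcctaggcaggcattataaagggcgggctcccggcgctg
The other genes with a motif are shown by 30 bases around it, to compare the flanks of the element between targets (Ankrd1, Amotl2), coactivators (Yap1, Wwtr1) and a TEAD gene:
Ankrd1, 210 bases before the start (chr19:36120037-36120066, minus strand): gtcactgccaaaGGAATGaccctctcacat
Ankrd1, 123 bases before the start (chr19:36119950-36119979, minus strand): gacactaagtctGGAATGaaaattcacctg
Amotl2, 65 bases before the start (chr9:102717727-102717756, plus strand): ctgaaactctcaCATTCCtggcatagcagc
Yap1, 141 bases before the start (chr9:8004720-8004749, minus strand): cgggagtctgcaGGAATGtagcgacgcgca
Wwtr1, 136 or 170 bases before its annotated starts (chr3:57576029-57576058, minus strand): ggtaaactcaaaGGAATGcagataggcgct
Tead3, with a pair of elements 123 and 114 bases before the start (chr17:28350706-28350735, minus strand): tccggccgggctCATTCCgtaCATTCCggc
Tead3, 182 bases before another start (chr17:28350970-28350999, minus strand): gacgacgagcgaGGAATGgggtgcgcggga
GENCODE places exons of the gene itself in the windows of Ankrd1, Amotl2, Tead2 and Tead3 and in 1 of the 2 windows of Wwtr1, and an exon of another gene, Gm45494, in the window of Yap1. The window of Cyr61 holds none. A match is a description of these letters and not a binding site. Over all tested genes with a window, holding the motif did not go with more rises: 23.6% of 1079 genes with it were called higher, against 24.8% of 7638 genes without it, and 24.4% and 22.8% were called lower. Cyr61 and Ankrd1, which rose most, hold the motif, and so do Yap1, which was not called, and Wwtr1, which fell.

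Over 8 lists covering other inputs, partners and targets of the pathway, 61 of 74 genes passed the filter, 16 were called higher, 8 lower and 37 in neither direction. The share called higher was near the 24.4% of all genes tested, and the share called lower was below their 23.3%. These 2 shares are also the background for each list that follows, and counts in lists this small are descriptions. When any single library was left out, fewer were called higher, both in these lists and among all genes. Lats2 and Ptpn14 stand in more than 1 list, as regulators and as targets. Among the Hippo kinases and scaffolds, all 15 were tested, 6 were higher, 1 was lower, and the median log2 change was 0.081. The 6 were above the background share. They became 3 with the replicate number as a block, with no filter or with libraries scaled to the same FPKM sum. The background fell as well, to 2369 of 10827 genes called higher with the block. It was 2581 of 16191 with no filter and 1984 of 11286 with equal FPKM sums. The count for this list also fell when any single library was left out. Wwc2, a KIBRA-family scaffold that promotes LATS activity, rose by 0.63 ± 0.056. The MST1 kinase gene Stk4 rose by 0.34, its adaptor Sav1 by 0.33 and the LATS coactivator Mob1a by 0.19, and Taok1 and Wwc1 were also called. The LATS kinase genes Lats1 and Lats2 were not called, with overlapping groups. Nf2, which encodes merlin, the upstream tumour suppressor, fell by 0.16. The calls of Taok1 and Wwc1 did not survive the omission of any single library (adjusted p up to 0.151 and 0.18). Mob1a lost its call without WT replicate 1, KO replicate 1 or KO replicate 2 (up to 0.106), and Nf2 without either WT library or KO replicate 1 (up to 0.0776).

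Genes whose products bind YAP or TAZ or act at junctions were called in 4 of 10 cases tested, 3 higher and 1 lower (median 0.040), where 47.6% of all genes were called. Csnk1e, a casein kinase that takes part in YAP and TAZ degradation, was 11.5 and 13.4 FPKM in WT against 18.2 and 19.02 FPKM in KO, a rise of 0.55. The LATS inhibitor Ajuba rose by 0.27 and the angiomotin-like Amotl1, a paralog of Amotl2, by 0.16. The polarity scaffold Scrib fell by 0.23. The call of Amotl1 was lost whichever library was left out (adjusted p of 0.111 to 0.149), and that of Ajuba without WT replicate 2 (adjusted p = 0.0579). In the STRIPAK phosphatase complex, which inactivates the MST kinases, 1 of 9 was called, against 47.6% of all genes. It was the scaffold Ppp2r1a at 0.12, and this call too was lost whichever library was left out (adjusted p of 0.0504 to 0.164). With libraries scaled to the same FPKM sum, Mob1a, Taok1, Wwc1, Amotl1 and Ppp2r1a were not called, at 0.056 to 0.12. Of the vestigial-like cofactors, which also bind TEAD, Vgll3 (0.21) and Vgll4 (-0.15) were tested and not called with limma (unadjusted p of 0.0411 and 0.14), Vgll1 was listed at 0 throughout and Vgll2 did not exceed 0.0452 FPKM.

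Of 18 other genes of a widely used YAP and TAZ target signature, 12 were tested, 1 was higher and 3 were lower, with a median of 0.072. The share called lower was near the 23.3% of all genes, and 24.4% of all genes were called higher. Gadd45a, a stress-induced growth arrest gene, was 5.83 and 6.01 FPKM in WT against 15.6 and 12.2 FPKM in KO, a rise of 1.10 ± 0.11. Foxf2, a mesenchymal forkhead factor, was 21.2 and 22.4 FPKM against 8.33 and 7.34 FPKM, a change of -1.37 ± 0.072. Axl, a receptor tyrosine kinase, was 173 and 171 FPKM against 122 and 125 FPKM, a change of -0.48 ± 0.029. Myof, a membrane repair protein, fell by 0.17, and its call was lost without WT replicate 1 (adjusted p = 0.0766) or KO replicate 2 (0.0509). The other 8 tested, among them the tissue factor gene F3 and Crim1, were not called. Of those below the filter, Igfbp3 was listed at 0 in every library, and the groups of Fjx1, Nt5e and Nuak2 overlapped. Tgfb2 was 0.576 and 0.695 FPKM in WT against 1.14 and 1.14 FPKM in KO. Ccdc80 went the other way, at 0.605 and 0.617 FPKM in WT against 0.113 and 0.178 FPKM in KO.

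**Figure D4:**
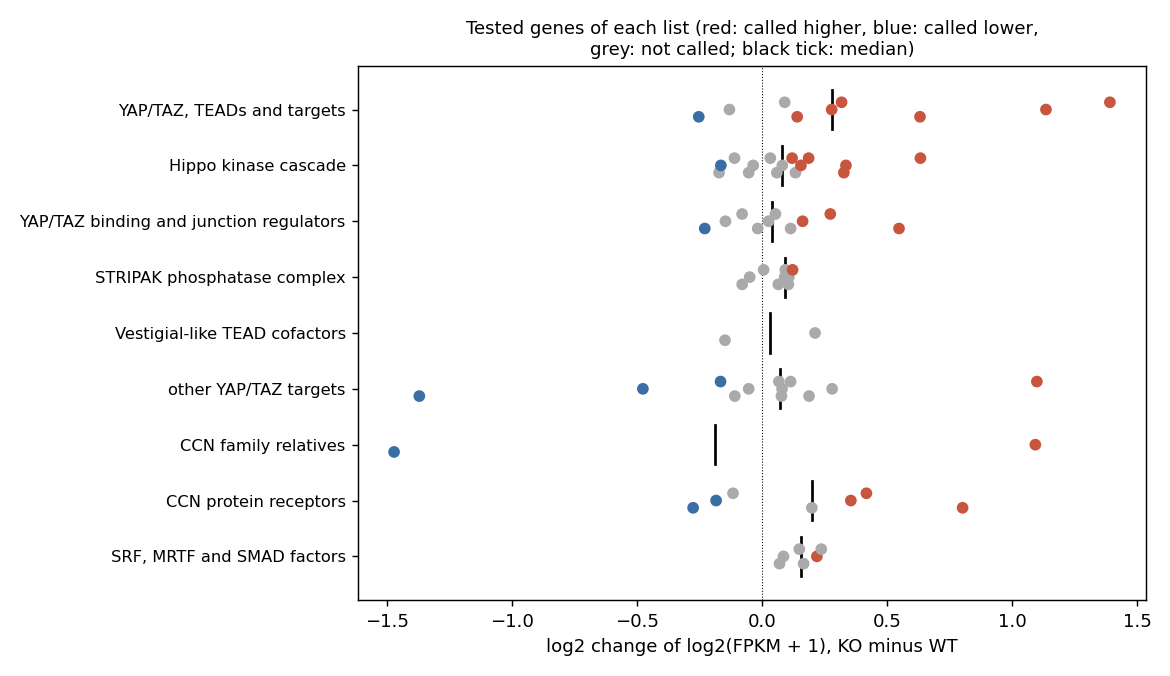
Log2 change, KO minus WT (horizontal axis), of every tested gene in the 10 genes (top) and in 8 further lists; red and blue points were called higher and lower, grey points were not called, and black ticks mark medians. Cyr61 and Ankrd1 lie beyond 1 in the top row, while the other targets range from Foxf2 at -1.37 to Gadd45a at 1.10.

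The CCN family, to which Cyr61 and Ctgf belong, changed in opposite directions. Wisp1, a secreted Wnt-inducible member, was 4.32 and 3.91 FPKM in the WT-labelled libraries and 9.47 and 10.4 FPKM in the KO-labelled ones, a rise of 1.09 ± 0.078 (adjusted p = 0.000587). Wisp2, which lacks the C-terminal domain of the other members, was 8.10 and 7.53 FPKM against 2.29 and 2.07 FPKM, a change of -1.47 ± 0.081 (adjusted p = 0.000281). Neither gene's groups overlapped, which was also so for 77.5% of all genes tested. Nov and Wisp3 did not exceed 0.323 FPKM in any library.

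Receptors for CCN proteins were called in 5 of 7 cases tested, 3 higher and 2 lower (median 0.20), where 47.6% of all genes were called. The integrin chain Itgav was 15.1 and 15.2 FPKM in WT against 28.1 and 26.3 FPKM in KO, a rise of 0.80 ± 0.049. Its partner Itgb5 rose by 0.42 and the Wnt coreceptor Lrp6 by 0.35. Itga6 fell by 0.28 and Itgb1, the most abundant chain at 236 to 271 FPKM, by 0.18. The other partner of Itgav in the list, Itgb3, did not exceed 0.0523 FPKM.

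Of the SRF, MRTF and SMAD factors, which also act on the Cyr61 and Ctgf genes, only Smad4 was called among 6 tested, at 0.22, where 47.6% of all genes were called. That call was lost without WT replicate 2 (adjusted p = 0.075) or KO replicate 1 (0.0524).

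The genes with the nearest profiles were found for each called target by the Euclidean distance between log2 values centred on each gene's mean over the 4 libraries, among 8122 genes with at least 5 FPKM. Nearest to Cyr61 were the C-type lectin gene Cd209c (distance 0.076), the mitophagy receptor gene Bnip3 (0.10) and Nfil3, a leucine zipper repressor (0.11). Nearest to Ankrd1 were Ap2a2, a clathrin adaptor subunit (0.0077), the fibrillin gene Fbn1 (0.062) and the AP-1 subunit Jund (0.072). Nearest to Amotl2 were the cholesterol synthesis gene Nsdhl (0.017), Gmeb2 (0.025) and Hpcal1 (0.028). With 4 libraries in 2 groups, such nearness mainly means a log2 change of the same size, such as 1.41 for Cd209c and 1.13 for Ap2a2.

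Markers checked the cell type and other cells. Of 7 intestinal epithelial markers none passed the filter, Epcam and Cdx2 were listed at 0 throughout, and the summed level was 0.544 to 1.05 FPKM in every library. The defining epithelial markers of the labelled carcinoma were thus at or near 0 in both groups. Of 5 fibroblast markers 3 passed, and their sum was 15.2 and 14.2 FPKM in the WT-labelled libraries and 10.6 and 11.4 FPKM in the KO-labelled ones, a gap carried by the proteoglycan gene Dcn. Of 8 listed leukocyte markers, 5 were at 0 throughout. Their sum was 6.20 and 5.91 FPKM against 1.08 and 1.84 FPKM, nearly all of it Cd68. Endothelial markers summed to at most 0.924 FPKM. Dcn and Cd68 moved with the groups as Cyr61 and Ankrd1 did, in the other direction, and their part in these changes was not tested. In bulk RNA, fewer cells of a type and less RNA per cell cannot be told apart.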

How the data were processed

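RNA was sequenced in 4 MC38 libraries made with a stranded TruSeq mRNA kit, per the labels' protocols. The authors deposited FPKM values per gene symbol. The submitters' processing notes name the build mm10, Cufflinks 2.2.1, SAMtools 0.1.19, TopHat2 2.0.13 and Bowtie2 2.2.3. Whether strand was used, the settings and the annotation are not given in the sources used here. Groups and replicate numbers came from sample titles. The members and lists were chosen with earlier results of these data known.

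Values were analysed as log2(FPKM + 1), after a filter of a mean of 1 FPKM, with limma 3.58.1 in R 4.3.3 (eBayes with trend, two-sided, no block, all 4 libraries). P-values were adjusted over all 10827 genes. The fit was tested on simulated data. FPKM is not a count, so no count model was used, and the +1 understates changes of low genes. All 10 genes, Arid5a, up to 4 called genes per list with the largest absolute change, every called gene where 5 or fewer went in 1 direction, and the 3 nearest profiles were named. A list of the design is not reported here. Other names were chosen after their values were seen.

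Depth was estimated from genes with 1 coding transcript of at least 1500 bases in GENCODE M21 (GRCm38, the assembly mm10 denotes), whose low values are multiples of 1 fragment. Of such values, 75.6% to 79.2% lay within 0.15 of a whole fragment, where evenly spread values would give 30%. The size of 1 fragment was set from these same values, so this share is a description and not a test. Cyr61 and Ctgf were matched to Ccn1 and Ccn2 as synonyms. Protein sequences were not used here. Alternatives covered pseudocount, filter, scaling, moderation, replicate block and each library left out. Figures were drawn with Python 3.11.15 and matplotlib 3.10.9.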

Additional observations from a re-analysis of the deposited data

How the results depend on the processing

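Of the 9 genes tested, Cyr61, Ankrd1, Tead1, Tead3 and Wwtr1 kept direction and call under every alternative run (14 each, 13 for Tead3, which a filter of 5 FPKM removed), and Yap1 and Tead4 were called under none. Tead2 was not called with libraries scaled to the same FPKM sum (0.075, adjusted p = 0.212) or without the variance trend (0.14, adjusted p = 0.0738), and ranged from 0.10 to 0.18 with single libraries left out. Amotl2 was not called with no filter (0.28) or scaled to the same FPKM sum (0.23), and ranged from 0.21 to 0.35 with single libraries left out. Members called higher ranged from 4 to 6. Scaling to the same FPKM sum also moved the list genes called lower from 8 to 14. With single libraries left out, 1607 to 2082 of all genes were called lower, the fewest without WT replicate 2 (1672 without WT replicate 1), and 10 to 12 list genes were called higher, against 16. Of 24 called list genes, 9 lost their call under at least 1 alternative and 0 reversed. Counts of 0 to 3 calls in the other lists moved by at most 2. The Hippo list went from 6 higher to 3 under 6 of the alternatives, no filter among them, and its 1 lower to 3 with equal FPKM sums. The labels do not say that replicate numbers pair libraries. Differences between replicates correlated across genes at 0.138 between groups, and with the replicate number as a block 4673 genes were called against 5159, with 6 members higher and 1 lower as without it. The block ended the calls of Mob1a, Taok1, Wwc1 and Amotl1 (adjusted p of 0.0536 to 0.0731) and of no other gene named as called from the lists or the members. Leaving out 1 library assumes that the lone sample varies like the other group. The values of Ctgf and Tead3 rest on few fragments, and the part of depth in them was not tested. The causes of lost calls were not tested.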
